A study of Mus musculus with 8 samples.

Results

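The 38 nuclear genes described here encode subunits of the mitochondrial respiratory chain and ATP synthase: 15 of complex I, 4 of complex II, 5 of complex III, 7 of complex IV and 6 of complex V, with cytochrome c (Cycs) as a single gene. Ndufa4, since found in complex IV, is counted with complex I, as first described, in all values by complex. The 38 genes were chosen by symbol, by a rule that uses no measured value but with earlier results of these data known. Symbols were mapped to the Ensembl IDs of the deposited gene table, of which the members are 38 of 55573. Their RNA was measured by sequencing in naive CD8+ T cells, resting cytotoxic lymphocytes that have not met their antigen, which were enriched by CD8a from spleen and lymph nodes of male C57BL/6 mice and then sorted. 5 libraries are labelled Furin KO (replicates 2 to 5 from mice of 8 weeks, replicate 1 from 7 weeks) and 3 are labelled WT (replicates 2 and 3 from 8 weeks, replicate 1 from 7 weeks). Furin encodes a protease that cleaves precursor proteins in the secretory pathway. Which part of the gene was removed, and in which cells, is not stated in the labels. Nor do the labels tell whether the libraries are from different mice, and the p-values therefore reflect only how much these samples vary, which can include technical variation.

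Oxidative phosphorylation is carried out in the inner mitochondrial membrane. Complex I takes electrons from NADH and complex II from succinate, complex III passes them to cytochrome c, and complex IV passes them on to oxygen. Complexes I, III and IV pump protons as they do so, and complex V uses the proton gradient to make ATP. Most subunits are encoded in the nucleus and a smaller set in mitochondrial DNA, and resting T cells are known to depend on this route for ATP until activation turns them to glycolysis.

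Total counts ranged from 11308220 to 21040431 in the Furin KO libraries and from 14463450 to 19159021 in WT. Levels are in CPM, counts per 1000000 of the TMM-adjusted size of the library. Furin itself stood at 63.5, 86.4, 62.2, 58.0 and 76.6 CPM in the libraries labelled Furin KO, in replicate order, and at 57.0, 66.8 and 66.9 CPM in WT. The targeted gene's count was thus no lower under the Furin KO label than in WT, and since a count over the whole gene does not show which exons carry reads, it does not check the labels. All 8 markers of CD8+ T cells were detected in every library, with a summed level of 9817 to 11233 CPM in Furin KO and 9454 to 10898 CPM in WT. Markers of B cells, macrophages and dendritic cells summed to at most 2.08 CPM in any library, and those of red cells were listed at 0. Of the NK cell markers Ncr1 was at 0 counts, and their sum of 33.6 to 51.5 CPM in Furin KO and 39.5 to 40.4 CPM in WT was nearly all Eomes, which CD8+ T cells also express. Markers of effector T cells summed to 67.0 to 104 CPM in Furin KO and 66.9 to 116 CPM in WT, mostly Prf1 (perforin), and those of CD4+ and regulatory T cells to 9.20 to 25.2 CPM in Furin KO and 10.3 to 18.8 CPM in WT. Among these markers Ctla4 was at 5.21 ± 1.72 CPM in Furin KO and 2.02 ± 1.60 CPM in WT (SD, n = 5 and 3). Il7r, a receptor of resting T cells, was at 559 ± 66.9 CPM in Furin KO and 686 ± 95.2 CPM in WT. Their unadjusted p was 0.014 and 0.015, and neither passed after adjustment (edgeR). For Ctla4 every Furin KO library was above every WT library, but only just: the lowest Furin KO value was 3.59 CPM and the highest WT value 3.57 CPM. The groups did not overlap in 2.90% of all genes. For Il7r they overlapped. The libraries were split by the distances between their counts into 3 sets, a number that was set and not found from the data. Each set held both genotypes: Furin KO 1 with WT 1 (the 7-week libraries), Furin KO 2 and 3 with WT 2, and Furin KO 4 and 5 with WT 3. The sets were barely separated. Distances (chi-squared per degree of freedom) were 10.9 to 16.6 for pairs within sets and 16.7 to 38.3 for pairs between them.

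All 38 genes were detected and passed the filter on low counts. Compared per kilobase of transcript, over all 8 libraries, Atp5b, the catalytic beta subunit of ATP synthase, averaged highest at 408 CPM per kb. Cox4i1, a nuclear subunit of complex IV, came next at 317 CPM per kb, then Atp5a1, the alpha subunit of ATP synthase, at 287 CPM per kb, followed by Cox6a1 at 224 and Cox6b1 at 181 CPM per kb. Complex V had the highest median, 159 CPM per kb, and complex I the lowest of the 5 complexes, 51.3 CPM per kb, with its members between 29.6 (Ndufa5) and 98.7 CPM per kb (Ndufa4). The 4 subunits of complex II, which are present once each in the enzyme, ranged from 103 CPM per kb for Sdha, the flavoprotein, to 18.8 CPM per kb for Sdhc, a membrane anchor. Within complex III, Uqcrc2 and Uqcrc1, the core proteins, stood at 107 and 102 CPM per kb. Uqcrq, a small subunit, was at 29.6 CPM per kb by its longest annotated main transcript of 1521 bases and at 111 CPM per kb by the shortest, of 405 bases, so its place in the order depends on which one the cells use. The same holds for Atp5d, at 146 CPM per kb by its longest and 221 CPM per kb by its shortest main transcript, the second of which would place it above Cox6b1 and close to Cox6a1. Cycs, the soluble electron carrier between complexes III and IV, was counted far below every other gene at 0.638 CPM per kb, and only it averaged under 10 CPM. It has 4 near-identical copies, and how reads that match several genes were counted is not given, so this level is uncertain. Its testis form Cyct was at 0 counts in every library.

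**Figure D1:**
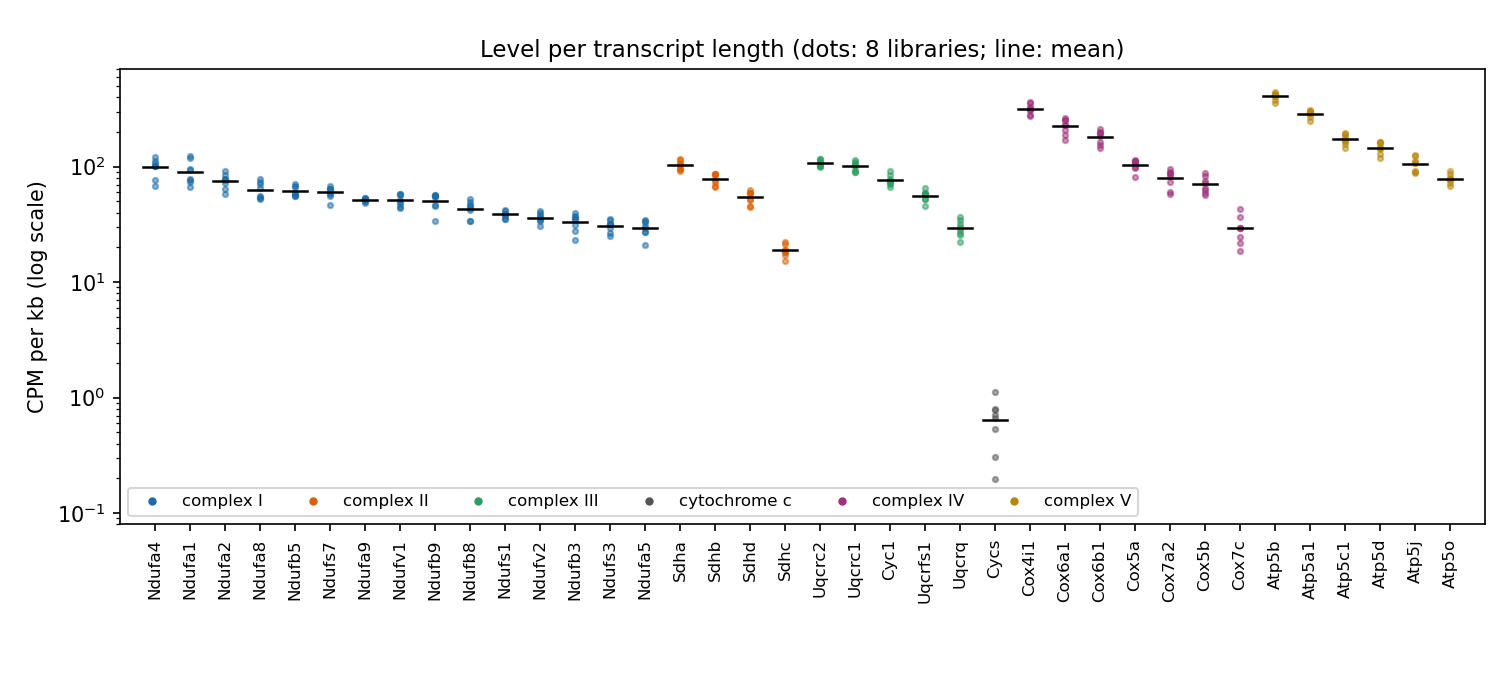
Level of each gene per kilobase of its longest main transcript, in CPM per kb on a log axis, grouped by complex; dots are the 8 libraries and lines their means. Atp5b, Cox4i1 and Atp5a1 are highest, and Cycs lies far below the other 37 genes, at a level that is uncertain because it has near-identical copies.

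None of the 38 genes passed the test of a difference between the genotypes. Of 12500 genes tested, 4 passed at an adjusted p under 0.05 (edgeR's quasi-likelihood test, Benjamini-Hochberg adjustment; 0.0320% of genes), and none was a member. 0 of the 38 reached an unadjusted p under 0.05, against 3.21% of all genes, and in 0 of the 38 did the Furin KO and WT libraries not overlap, against 2.90% of all genes. DESeq2 and limma-voom likewise called 0 of the 38, against 0.120% and 0.0400% of all genes. 20 members lay above 0 and 18 below, with a median log2 fold change of 0.01, where that of all genes was -0.0007. The number above 0 was 11 without WT replicate 1 and 30 without Furin KO replicate 1 or WT replicate 3. Within the 3 sets of similar libraries, each with 1 WT library, the median log2 ratio of Furin KO over WT was -0.02, 0.04 and -0.10. Furin KO lay above WT in all 3 sets for 2 members, Ndufa4 and Ndufs7, against 14.1% of all genes, and below WT in all 3 for 5, Cox6a1, Cox7a2, Ndufa2, Sdhb and Uqcrc1, against 13.7% of all genes. The values ran from -0.30 for Ndufa1 to 0.46 for Cycs, and 29 of the 38 were within 0.1 of 0. In 35 members the 95% interval lay within 0.5 of 0 on the log2 scale, and in 37 within 1, Cycs being the exception. Differences smaller than these bounds are not excluded. Each interval is for 1 gene, is not adjusted over the 38, and comes from a fit with 3 WT libraries and no age term. The intervals therefore do not exclude larger differences for all members together.

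**Figure D2:**
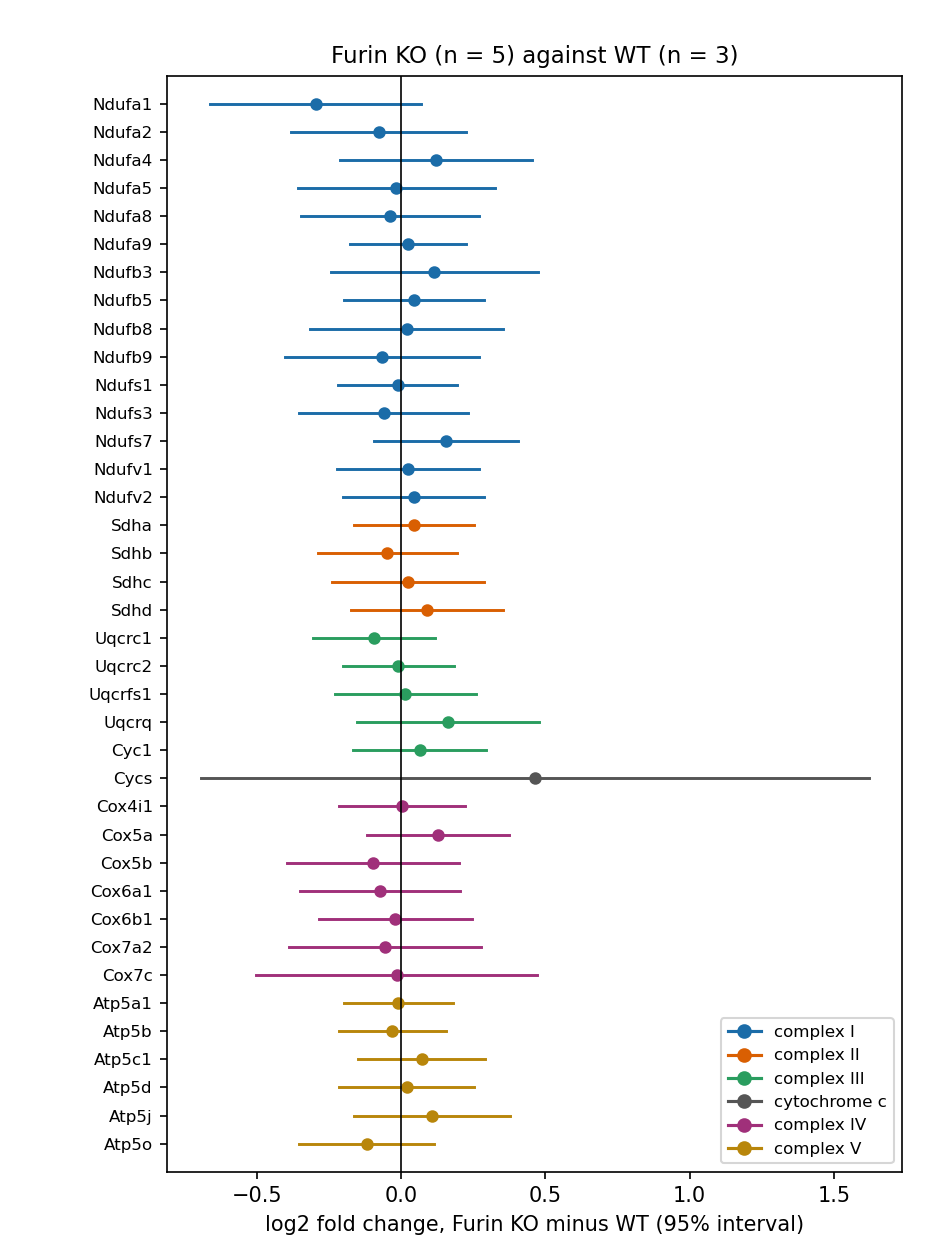
Log2 fold change of each gene, Furin KO (n = 5) minus WT (n = 3), with its 95% interval from the edgeR fit, coloured by complex. Every interval holds 0; the widest is that of Cycs, from -0.69 to 1.62.

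The summed level of all 38 genes also differed little between the genotypes. Such sums are set mostly by the abundant genes: over the 8 libraries Atp5b and Atp5a1 of complex V averaged 781 and 710 CPM, and Sdha of complex II 300 CPM. It was 4087, 4892, 4827, 4761 and 4683 CPM in the Furin KO libraries, in replicate order, and 4143, 4774 and 5031 CPM in WT. The means were 4650 ± 324 CPM in Furin KO (SD, n = 5) and 4649 ± 457 CPM in WT (SD, n = 3), a ratio of 1.0002. In both groups replicate 1, the library from a 7-week mouse, was the lowest. In the 8-week libraries alone, the sum averaged 4791 CPM in Furin KO (n = 4) and 4902 CPM in WT (n = 2). By complex, the ratio of Furin KO over WT was 1.01 for complex I, 1.02 for complex II, 0.998 for complex III, 0.989 for complex IV and 0.996 for complex V, and leaving out WT replicate 1, WT replicate 3 or any other library kept all 5 between 0.919 and 1.07.

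**Figure D3:**
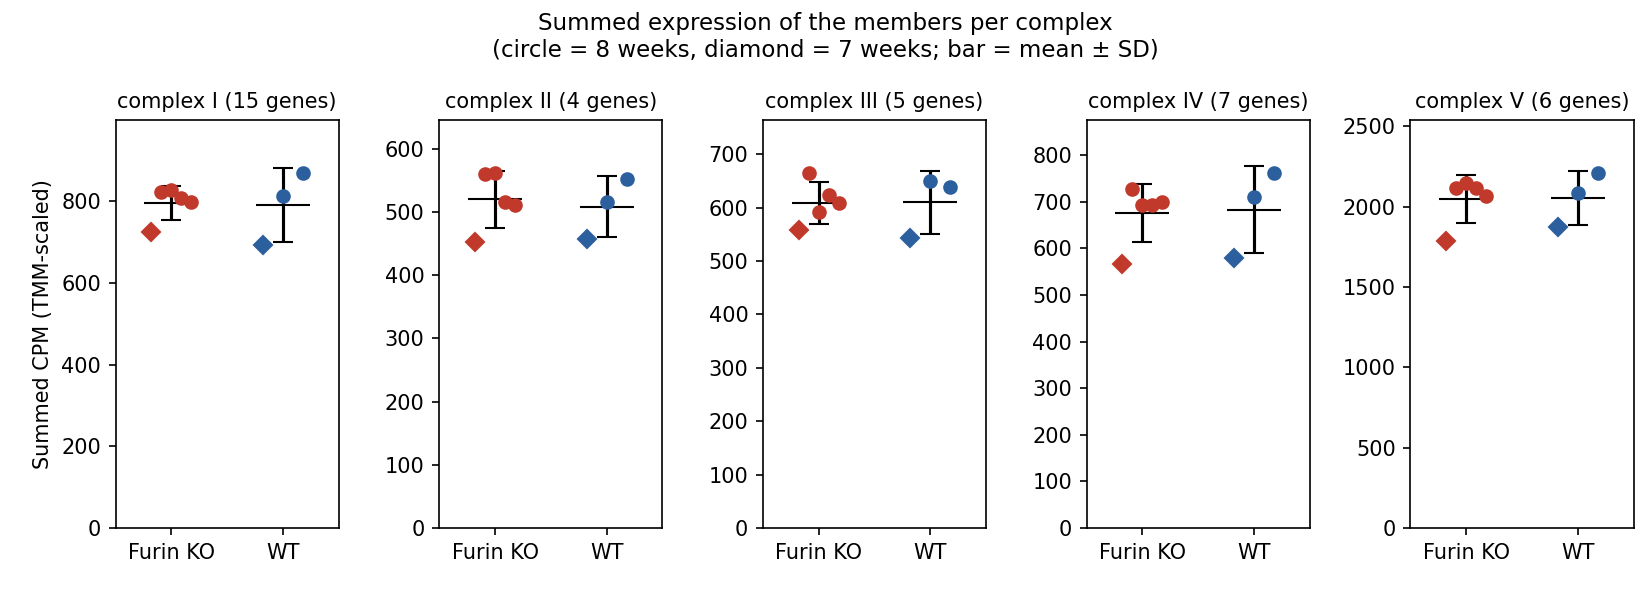
Summed CPM of the member genes of each complex in every library, Furin KO on the left and WT on the right of each panel; circles are 8-week and diamonds 7-week libraries, and bars give mean ± SD. The groups overlap in all 5 panels, and the 7-week library is the lowest of its group in each.

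Complex I is the entry point for electrons from NADH. Its core subunits Ndufv1 and Ndufv2, which hold the site of NADH oxidation, had log2 fold changes of 0.02 and 0.04, and Ndufs1, Ndufs3 and Ndufs7, which carry iron-sulfur clusters or form the peripheral arm, had -0.01, -0.06 and 0.16. Ndufa1 (ENSMUSG00000016427, chromosome X, 37187588 to 37191163, minus strand, GRCm38 as for all genes here), a small accessory subunit of the membrane arm, had the lowest fold change of all members. It was at 32.1, 40.3, 39.3, 30.8 and 32.8 CPM in Furin KO and at 27.8, 49.3 and 51.8 CPM in WT. The 2 WT libraries of 8 weeks were the highest of all and the 7-week WT library the lowest, so the groups overlapped. The log2 fold change was -0.30 ± 0.17 (SE; 95% interval -0.66 to 0.07), and with each library left out in turn it ran from -0.52 (without WT replicate 1) to -0.14 (without WT replicate 3), being -0.19 without WT replicate 2, without passing in any case. Ndufa4 (ENSMUSG00000029632, chromosome 6, 11900292 to 11907497, minus strand), first described as a complex I subunit and since found in complex IV, was the most abundant gene of this group per length. It had 46.8, 66.2, 74.4, 61.2 and 62.1 CPM in Furin KO and 41.5, 68.3 and 61.3 CPM in WT, with a log2 fold change of 0.12 ± 0.16 (SE), which ran from -0.06 (without WT replicate 1) to 0.27 (without WT replicate 2) with 1 library left out. Both 7-week libraries were lowest, and the 8-week ones of both genotypes were mixed in order. The accessory subunits Ndufa2, Ndufa5, Ndufa8, Ndufa9, Ndufb3, Ndufb5, Ndufb8 and Ndufb9 lay between -0.08 and 0.12. Ndufa9 had the smallest spread of all members, from 69.9 to 77.9 CPM over the 8 libraries.

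Complex II oxidises succinate and is also an enzyme of the citric acid cycle. Its flavoprotein Sdha (ENSMUSG00000021577, chromosome 13, 74322254 to 74350280, minus strand) was at 266, 333, 335, 303 and 278 CPM in Furin KO and at 276, 293 and 313 CPM in WT, a log2 fold change of 0.04 ± 0.10 (SE). Sdhd (ENSMUSG00000000171, chromosome 9, 50596357 to 50603812, minus strand), a membrane anchor, was at 55.3, 72.8, 72.5, 64.7 and 77.4 CPM in Furin KO and at 56.0, 63.7 and 73.1 CPM in WT. Its 0.09 ± 0.13 (SE) was the largest fold change of the 4, running from 0.01 (without WT replicate 1) to 0.20 (without WT replicate 3) with 1 library left out, and the WT values lay inside the Furin KO range. The iron-sulfur subunit Sdhb and the second anchor Sdhc had log2 fold changes of -0.05 and 0.03.

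Complex III hands electrons from ubiquinol to cytochrome c. Uqcrc2 (ENSMUSG00000030884, chromosome 7, 120635176 to 120659524, plus strand), a core protein, was at 189, 220, 203, 212 and 191 CPM in Furin KO and at 192, 221 and 199 CPM in WT, a log2 fold change of -0.01 ± 0.09 (SE). Uqcrq (ENSMUSG00000044894, chromosome 11, 53427922 to 53430831, minus strand) was at 40.2, 56.2, 46.0, 43.3 and 48.8 CPM in Furin KO and at 33.9, 38.8 and 52.8 CPM in WT. Its fold change of 0.16 ± 0.15 (SE) was the largest in the complex, with overlapping groups, and with 1 library left out it ran from 0.04 (without WT replicate 1) to 0.37 (without WT replicate 3). The other core protein Uqcrc1, the Rieske iron-sulfur protein Uqcrfs1 and cytochrome c1 (Cyc1) had -0.09, 0.01 and 0.07.

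Cycs (ENSMUSG00000063694, chromosome 6, 50562563 to 50566538, minus strand) was the least precisely measured member, with 304 counts over all libraries. It was at 2.09, 2.44, 3.47, 2.48 and 0.615 CPM in Furin KO and at 0.961, 2.19 and 1.69 CPM in WT. Furin KO replicate 5 held the lowest value and replicate 3 the highest, so 1 group spanned the whole range. The log2 fold change was 0.46 ± 0.55 (SE), and with 1 library left out it ran from 0.21 (without WT replicate 1) to 0.75 (without WT replicate 2), being 0.25 without Furin KO replicate 3. 4 near-identical copies of its coding sequence are annotated, among them Gm10053 with 100% identity, and all 4 were at 0 counts. How reads that match several genes were counted is not given in the sources used here, so the level of Cycs is uncertain.

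Complex IV reduces oxygen, and the 7 nuclear members surround the core made in the mitochondrion. Cox4i1 (ENSMUSG00000031818, chromosome 8, 120668222 to 120674207, plus strand), the ubiquitous form of subunit 4, was at 211, 235, 244, 271 and 252 CPM in Furin KO and at 215, 235 and 277 CPM in WT, a log2 fold change of 0.003 ± 0.10 (SE). Its hypoxia- and lung-associated form Cox4i2 had 9 counts over all libraries. Cox5a (ENSMUSG00000000088, chromosome 9, 57521274 to 57532426, plus strand) was at 63.5, 73.8, 72.8, 72.8 and 63.2 CPM in Furin KO and at 52.4, 68.9 and 68.7 CPM in WT. Its 0.13 ± 0.12 (SE) was the largest fold change of the complex, with 0.01 without WT replicate 1 and up to 0.19 without another library, and the groups overlapped. Cox5b, Cox6a1, Cox6b1, Cox7a2 and Cox7c lay between -0.10 and -0.02 on the log2 scale. The muscle and heart forms Cox6a2 and Cox7a1 had 4 and 17 counts in all, the testis form Cox6b2 81, and Cox7b2, Cox8b and Cox8c 0 counts. Nearly all complex IV reads with a choice of form thus came from the ubiquitous ones.

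Complex V makes ATP, with Atp5a1 and the catalytic subunit Atp5b in its head, Atp5c1 and Atp5d in the central stalk, and Atp5o and Atp5j in the peripheral stalk. Atp5b (ENSMUSG00000025393, chromosome 10, 128083273 to 128090391, plus strand) was at 685, 788, 813, 812 and 778 CPM in Furin KO and at 728, 792 and 854 CPM in WT. The 7-week library was lowest in each group, and the log2 fold change was -0.03 ± 0.09 (SE; 95% interval -0.22 to 0.16). Atp5o (ENSMUSG00000022956, chromosome 16, 91925214 to 91931687, minus strand) was at 56.6, 67.2, 64.0, 72.0 and 60.0 CPM in Furin KO and at 65.8, 65.5 and 77.3 CPM in WT. Its -0.12 ± 0.11 (SE) was the largest fold change in size of this complex, between -0.16 (without Furin KO replicate 4) and -0.03 (without WT replicate 3) with 1 library left out. Atp5a1, Atp5c1, Atp5d and Atp5j had -0.01, 0.07, 0.02 and 0.11.

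The 2 libraries of 7 weeks, one of each genotype, stood apart from the other 6. Relative to each gene's mean over the 8 libraries, on the scale of log2(CPM + 0.5), the median member lay between 0.02 and 0.15 in the 6 libraries of 8 weeks, with 23 to 33 of the 38 members above their mean. It lay at -0.18 in Furin KO replicate 1 and at -0.23 in WT replicate 1, with 6 and 3 members above their mean. A comparison of age with genotype in the model was therefore added after these values were seen. The 2 libraries of 7 weeks are also 1 of the 3 sets of similar libraries, so age, set and any handling they shared cannot be told apart, and the labels name no batch.

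**Figure D4:**
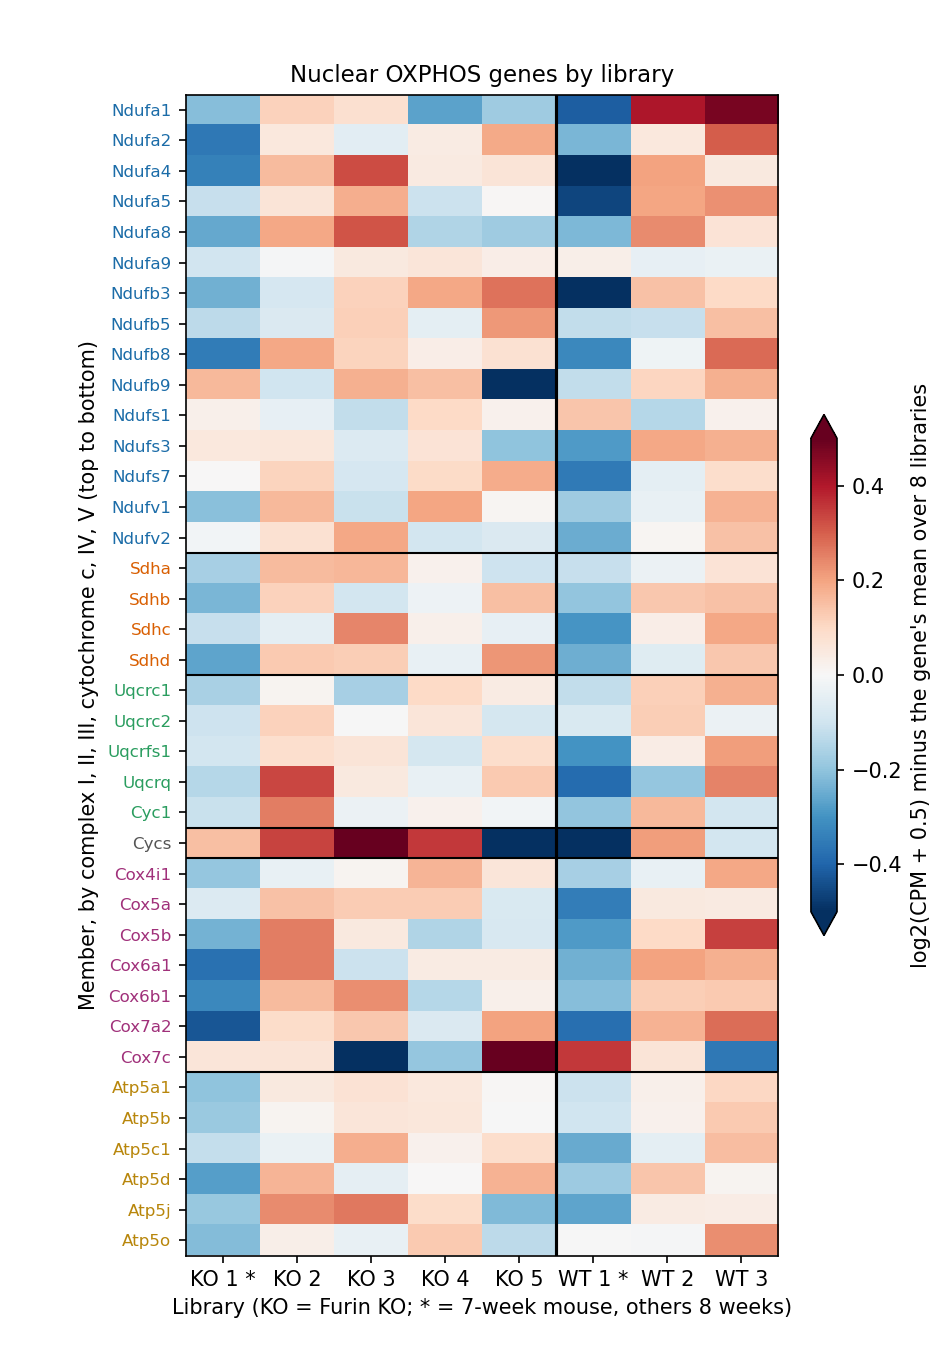
Each gene's log2(CPM + 0.5) minus its mean over 8 libraries (colour), by library (columns, Furin KO left of the vertical line and WT right of it) and gene (rows, grouped by complex). The columns of the 7-week libraries, Furin KO 1 and WT 1, are mostly blue, with 6 and 3 of 38 genes above their mean.

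Between 8 and 7 weeks, 35 of the 38 genes lay above 0, with a median log2 difference of 0.26, where that of all genes was 0.01. 25 of the 38 were higher at 8 weeks at an unadjusted p under 0.05 and 0 lower, against 7.06% of all genes higher and 6.49% lower. Of the 3124 genes of shortest exon length, to which 26 of the 38 belong, 422 were higher at such a p (edgeR). The members' own values prompted this comparison, so the counts of members here describe those values and are not a separate test of them. In 23 of the 38 all 6 libraries of 8 weeks lay above both of 7 weeks, and in 0 below, against 8.15% of all genes above and 8.04% below. No member passed after adjustment over all genes: the lowest adjusted p was 0.064, for Cox7a2 and Ndufa4 (edgeR's quasi-likelihood test). Of all genes, 10 genes passed as higher (0.0800%) and 32 as lower (0.256%). By other tools, DESeq2 called 6 members higher, against 1.36% of all genes, and limma-voom 2, against 0.296% of all genes. The summed level of the 38 genes was 4828 ± 121 CPM at 8 weeks (SD, n = 6), and 4087 and 4143 CPM in the 2 libraries of 7 weeks, a ratio of the means of 1.17.

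The median lay above 0 in each complex. Median log2 differences, 8 weeks minus 7 weeks, were 0.27 in complex I, 0.29 in complex II, 0.21 in complex III, 0.37 in complex IV and 0.23 in complex V. The members named next were chosen after their values were seen. Cox7a2, a small complex IV subunit, ran from 48.8 to 62.5 CPM with a median of 57.3 CPM in the 8-week libraries, against 38.1 and 39.5 CPM at 7 weeks. Its log2 difference was 0.56 ± 0.12 (SE), and no 8-week library of either genotype came as low as those of 7 weeks. Ndufa4 ran from 61.2 to 74.4 CPM with a median of 64.1 CPM at 8 weeks, against 41.5 and 46.8 CPM at 7 weeks, a log2 difference of 0.56 ± 0.12 (SE). Cox6a1, also of complex IV, ran from 118 to 151 CPM with a median of 137 CPM at 8 weeks, against 97.7 and 107 CPM at 7 weeks, a log2 difference of 0.44 ± 0.10 (SE). The abundant complex V subunits differed by less on this scale, Atp5b by 0.20 ± 0.07 (SE) and Atp5a1 by 0.21 ± 0.07 (SE). The 3 members at or under 0 were Ndufb9, Ndufs1 and Cox7c, at -0.004, -0.11 and -0.25, none with an unadjusted p under 0.05. In a model with an age by genotype term, 0 of the 12500 genes had an adjusted p under 0.05 for that term (edgeR; 371 genes and 1 member, Ndufa1, had an unadjusted p under 0.05). With 1 library of 7 weeks in each genotype, this says nothing on whether the age difference depends on genotype.

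**Figure D5:**
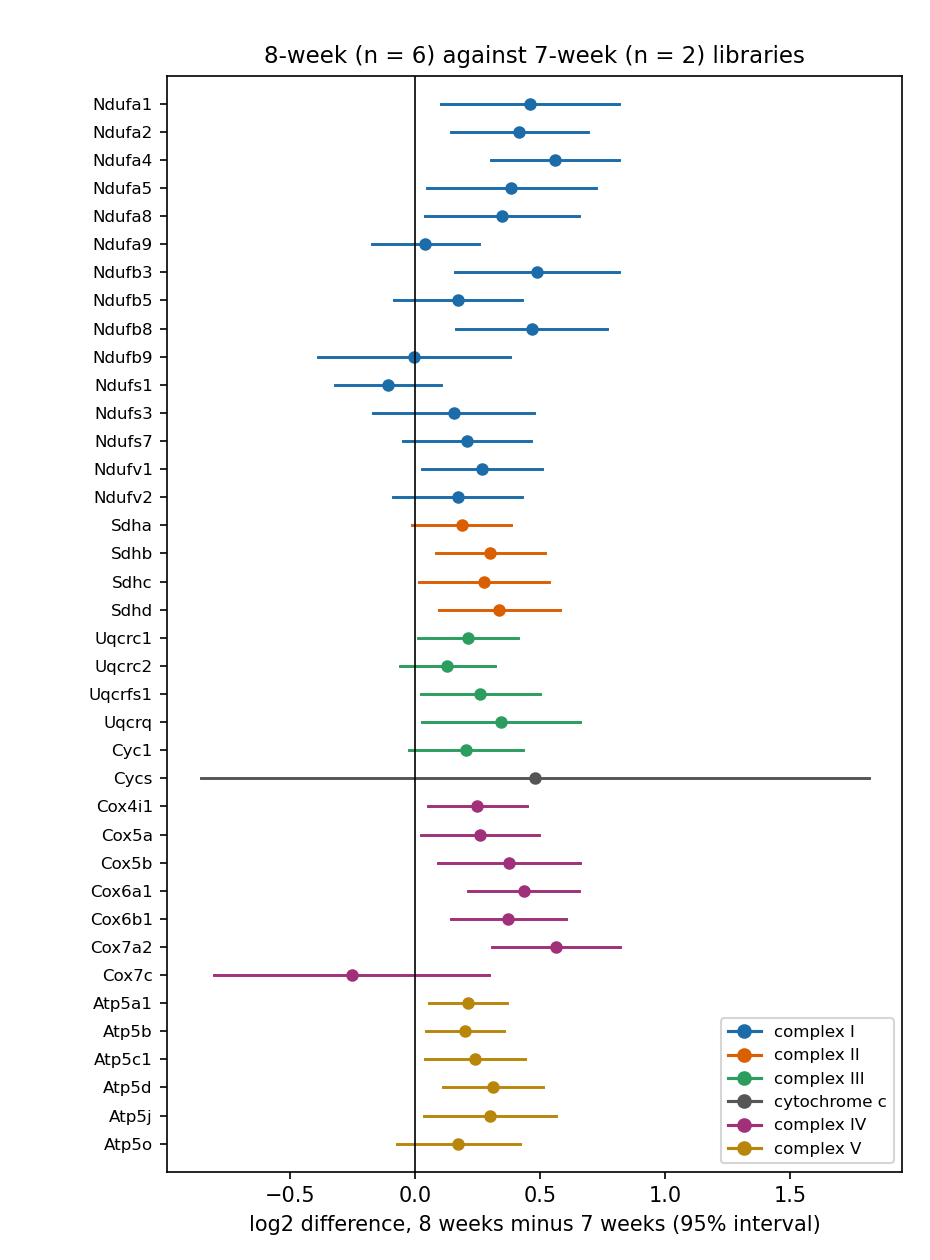
Log2 difference of each gene between the 8-week (n = 6) and 7-week (n = 2) libraries with its 95% interval, from the edgeR fit with genotype in the model. 35 of the 38 points lie above 0; Ndufb9, Ndufs1 and Cox7c do not.

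Other measures moved with the same 2 libraries. Over all genes tested, the 3124 shortest, with up to 2356.5 bases of exon, had a median log2 difference of 0.15 between 8 and 7 weeks. The 3124 longest, from 6413.5 bases on, had -0.11, and 26 of the 38 members are among the shortest and 1 among the longest. Of the 3124 shortest, 422 had an unadjusted p under 0.05 as higher at 8 weeks and 54 as lower (edgeR), and of the longest 48 and 514. In 442 of the shortest all 6 libraries of 8 weeks lay above both of 7 weeks, and in 100 below. With each library's trend on exon length removed, 34 of the 38 members still lay above 0, with a median of 0.18, but 5 of them, not 25, had an unadjusted p under 0.05, against 4.90% of all genes higher. With no such correction, 9 members had an unadjusted p under 0.05 as higher without WT replicate 1, against 4.25% of all genes, and 11 without Furin KO replicate 1, against 4.36% of all genes, with 1 library of 7 weeks left in each case. The 4 markers of CD4+ and regulatory T cells summed to 9.20 to 13.9 CPM in the 8-week libraries, against 18.8 and 25.2 CPM at 7 weeks. They include Ikzf2, a factor of regulatory T cells, and Ctla4, an inhibitory receptor of activated and regulatory T cells, and Cd4 and Foxp3 were at most 0.892 and 2.28 CPM in any library. The 8 markers of CD8+ T cells summed to 9844 to 11233 CPM at 8 weeks, against 9454 and 9817 CPM at 7 weeks, so the ages did not overlap. 0 of the 8 passed by age with edgeR (2 had an unadjusted p under 0.05, Cd8b1 as higher and Il7r as lower), and DESeq2 called 1 higher and 1 lower. The part of exon length and of these cell markers in the age difference was otherwise not tested. Total counts overlapped between the ages, at 11308220 to 21040431 at 8 weeks against 14463450 and 20841485 at 7 weeks, as did the share of counts from mitochondrially encoded protein genes, at 2.32 to 3.17% against 2.15 and 2.99%. In bulk RNA, fewer cells of a type and less RNA per cell cannot be told apart.

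The upstream sequences of 4 members are shown because nuclear respiratory genes are known to share binding motifs of a few factors. Whether the motifs bear on the difference by age or genotype was not tested. Windows of 250 bases before to 50 bases after the annotated start were available for 29 of the 38 members (RefSeq, GRCm38.p6). Both strands were searched for the motifs GCATGCGC (NRF1), CCGGAAG (ETS factors, which include GABPA), AAGATGGC (YY1) and AAGGTCA (ESRRA). The NRF1 motif was in 5 of the 29 members (17.2%) and in 3.05% of 27025 genes, and the ETS motif in 6 of the 29 (20.7%) and in 9.93% of genes. The YY1 motif was in 4 of the 29 (13.8%) and in 3.19% of genes, and the ESRRA motif in 1 (3.45%) and in 5.38% of genes. The 27025 genes are all those with a window, expressed in these cells or not, while all 29 members were detected. The shares are thus from unlike sets, and the difference between them was not tested. 12 of the 29 held at least 1 motif. The 4 of these with the highest mean CPM, not divided by length, are Uqcrc1 (chr9:108936398-108936697, plus strand), Cox6a1 (chr5:115348909-115349208, minus strand), Cox6b1 (chr7:30626065-30626364, minus strand) and Sdhb (chr4:140961021-140961320, plus strand). They are printed 5′ to 3′ on the gene's strand with the motifs in capitals. GCGCATGCGC is the NRF1 motif on both strands, overlapping, and CTTCCGG is the ETS motif on the other strand.
Uqcrc1: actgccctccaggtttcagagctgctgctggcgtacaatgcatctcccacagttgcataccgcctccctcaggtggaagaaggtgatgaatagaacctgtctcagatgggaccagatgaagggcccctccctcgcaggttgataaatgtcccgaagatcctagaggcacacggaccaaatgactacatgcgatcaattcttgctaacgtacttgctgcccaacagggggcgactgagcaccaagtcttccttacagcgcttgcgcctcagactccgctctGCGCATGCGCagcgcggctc
Cox6a1: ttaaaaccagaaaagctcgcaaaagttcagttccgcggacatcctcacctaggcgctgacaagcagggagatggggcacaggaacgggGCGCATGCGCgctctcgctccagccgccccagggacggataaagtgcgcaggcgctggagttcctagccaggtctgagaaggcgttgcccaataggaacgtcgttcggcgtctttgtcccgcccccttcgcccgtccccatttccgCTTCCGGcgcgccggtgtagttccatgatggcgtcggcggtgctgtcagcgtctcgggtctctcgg
Cox6b1: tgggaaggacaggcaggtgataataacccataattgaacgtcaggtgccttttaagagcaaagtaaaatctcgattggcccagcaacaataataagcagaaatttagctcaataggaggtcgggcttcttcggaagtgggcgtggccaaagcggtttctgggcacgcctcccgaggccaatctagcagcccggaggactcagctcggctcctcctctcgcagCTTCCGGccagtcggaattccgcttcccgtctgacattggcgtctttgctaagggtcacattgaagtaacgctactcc
Sdhb: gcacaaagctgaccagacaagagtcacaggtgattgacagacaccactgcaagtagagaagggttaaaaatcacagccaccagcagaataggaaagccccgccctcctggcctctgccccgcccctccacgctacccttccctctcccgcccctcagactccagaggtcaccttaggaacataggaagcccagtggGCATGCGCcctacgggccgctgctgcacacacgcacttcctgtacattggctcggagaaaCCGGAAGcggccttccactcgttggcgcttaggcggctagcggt
A match is a description of these letters and not of binding.

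None of these 4 genes passed the adjusted test for genotype or for age (edgeR). Log2 fold changes, Furin KO minus WT, were -0.09, -0.07, -0.02 and -0.05 for Uqcrc1, Cox6a1, Cox6b1 and Sdhb, and log2 differences, 8 weeks minus 7 weeks, were 0.21, 0.44, 0.37 and 0.30, with adjusted p-values for age of 0.328, 0.084, 0.149 and 0.21 (edgeR). For Uqcrc1 the ages overlapped. Cox7a2 and Ndufa4, the members of lowest p by age, held none of the motifs in their windows.

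The remaining genes of the pathway were likewise without a call for genotype, by edgeR, DESeq2 or limma-voom. Of 42 other nuclear subunits of the 5 complexes, all tested, 0 passed, 0 had an unadjusted p under 0.05, 21 lay above 0 and 21 below, and the median log2 fold change was 0.01. Those of lowest p were Ndufa7 of complex I, at 32.8 ± 5.41 CPM in Furin KO and 39.6 ± 4.25 CPM in WT, and 2 genes of few counts, Atp5g1 (2.47 ± 0.742 CPM in Furin KO, 1.29 ± 0.561 CPM in WT) and Ndufs5 (1.12 ± 0.486 CPM in Furin KO, 2.04 ± 0.354 CPM in WT; SD throughout, n = 5 and 3). In 1 of the 42 the groups did not overlap, against 2.90% of all genes. It was Atp5g2, also of few counts, at 1.11 ± 0.189 CPM in Furin KO and 1.93 ± 0.165 CPM in WT. Of 44 assembly factors, which build the complexes, 0 passed, 1 had an unadjusted p under 0.05, and 29 lay above 0, with a median of 0.06. Ndufaf5, which modifies a complex I subunit during assembly, was that one, with 9.84 ± 1.39 CPM in Furin KO and 13.6 ± 2.30 CPM in WT and an adjusted p of 0.9998 (edgeR). Cox15, needed for the heme of complex IV, was at 40.0 ± 6.35 CPM in Furin KO and 33.4 ± 2.54 CPM in WT. Taco1, a translational activator of mitochondrial Cox1, was at 17.8 ± 2.39 CPM in Furin KO and 15.1 ± 1.72 CPM in WT.

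Of the 12 regulators of mitochondrial genes on the list, 11 were tested, 0 passed and 1, Nrf1, had an unadjusted p under 0.05. The coactivator Ppargc1a had 14 counts in all, while its relatives Pprc1 and Ppargc1b were present, Pprc1 at 189 ± 11.5 CPM in Furin KO and 182 ± 14.2 CPM in WT, and Ppargc1b at 25.6 ± 5.41 CPM in Furin KO and 20.7 ± 1.47 CPM in WT. Nrf1, nuclear respiratory factor 1, was at 61.2 ± 3.96 CPM in Furin KO and 74.0 ± 10.6 CPM in WT, and its log2 fold change of -0.27 failed the adjusted test. Myc, a growth factor-induced transcription factor, was at 308 ± 79.4 CPM in Furin KO and 245 ± 30.3 CPM in WT, with overlapping groups. Yy1 and Tfam, which packages mitochondrial DNA, had log2 fold changes of -0.003 and 0.01. Of 16 genes of the citric acid cycle 0 passed, 1 (Idh3b) had an unadjusted p under 0.05, 4 lay above 0 and 12 below. Idh3b, a subunit of isocitrate dehydrogenase, was higher in every Furin KO library, at 197 ± 3.38 CPM, than in every WT library, at 174 ± 1.84 CPM. Mdh2, malate dehydrogenase, was lower in every Furin KO library, at 213 ± 15.1 CPM, than in WT, at 234 ± 4.23 CPM, as was Dld, a dehydrogenase subunit, at 82.1 ± 3.80 CPM, against 89.1 ± 3.36 CPM in WT. None of the 3 passed after adjustment, and the groups did not overlap in 2.90% of all genes.

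Of the 13 protein genes encoded in mitochondrial DNA, 7 were tested, 0 passed, 0 had an unadjusted p under 0.05, and all 7 lay between 0.04 and 0.10 on the log2 scale. mt-Co1, the catalytic subunit of complex IV, was at 8938 ± 1149 CPM in Furin KO (SD, n = 5) and 8611 ± 1785 CPM in WT (SD, n = 3). mt-Nd3, mt-Nd4l, mt-Co2, mt-Co3, mt-Atp6 and mt-Atp8 were listed at 0 in every library, which says nothing of their expression, since genes every cell uses are among them and the counting step is not given in the sources used here. By age the lists parted: the 42 other nuclear subunits had a median log2 difference of 0.27, 8 weeks minus 7 weeks, with 38 above 0 and 18 at an unadjusted p under 0.05 as higher (7.06% of all genes), and the assembly factors 0.20. The citric acid cycle genes had 0.09, the mitochondrially encoded genes 0.05 and the regulators -0.07. These differences between lists were not tested, nor was the part in them of exon length, with which the age difference varied over all genes. Of the genes in these lists, 0 passed after adjustment with edgeR. DESeq2 called 8 of the other subunits and 2 assembly factors higher at 8 weeks, against 1.36% of all genes. With limma-voom these were 2 and 0, against 0.296% of all genes.

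Some values carry limits from the annotation. 9 members share exon positions with a protein-coding gene on the opposite strand that had counts, and the strand setting of the counting is not given. The heaviest of these neighbours was Eef1b2, with 155526 counts beside 14768 for Ndufs1, and Gabpa had 14795 counts beside 12541 for Atp5j. Ndufb8, Ndufb9 and Atp5o each share exon positions with a protein-coding locus on the same strand, listed at 0 counts. How reads at such shared positions were counted is not given in the sources used here. 7 members have a near-identical coding copy elsewhere in the genome. The copy Gm45930 of Ndufb3 held 288 counts, against 3650 for Ndufb3, and the other copies at most 26, while Cox7c, like Cycs, has a copy of 100% identity, Gm12338, at 0 counts. How far the copies affect these members was not tested. These members are Ndufb3, Ndufs3, Cycs, Cox5b, Cox7c, Atp5c1 and Atp5o.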

How the data were processed

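RNA of naive CD8+ T cells was sequenced in 8 libraries, 5 labelled Furin KO and 3 labelled WT. The authors deposited raw whole-number counts per Ensembl gene, with a column for each sample. FastQC, Trim Galore, STAR and DESeq2 1.24.0 and the build GRCm38 are named by the submitters' processing notes. The program that counted reads, its annotation and whether strand was used were not given in the sources used here. Columns were matched to samples by title; that of Furin KO replicate 4 stands among WT columns, and its label was used. Symbols, coordinates and lengths came from GENCODE M21 (55480 of 55573 IDs matched).

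Genes were filtered by genotype (filterByExpr), scaled with TMM factors and tested from these counts in edgeR 4.0.16, with limma 3.58.1 under R 4.3.3, by the two-sided quasi-likelihood test of genotype over 12500 genes, with Benjamini-Hochberg adjustment and a threshold of 0.05. Replicate numbers follow accession order and pair nothing. Levels per kb use the longest principal transcript. Near-identical copies are BLAST 2.17.0 matches of coding sequences at 95% identity or more over at least 50% of the length. Members, gene lists and tests were chosen with earlier results of these data known, and the age comparison was added after values were seen. All 38 members are named; values in every library are given for the member of highest level per length and the member of largest fold change in each complex and for Cycs, and up to 3 genes of lowest p in each other list. The test was checked on simulated data with 200 genes changed. It recovered 49.3% of those changed 1.5-fold, 82.1% of those changed 2-fold and 97.0% of those changed 4-fold, with 11 false among 163 calls. Alternatives were RLE factors, library size alone, no mitochondrial genes, no filter, a CPM of 1 in 3 libraries, DESeq2 1.42.0, limma-voom, age or library set as a factor, the 8-week libraries alone, removal of a length trend, and each library left out. Libraries held 11308220 to 21040431 counts, and the common biological coefficient of variation was 0.20.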

Additional observations from a re-analysis of the deposited data

Results flagged for a closer look

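In the Furin KO group of 5 libraries, replicate 1, from a mouse of 7 weeks, lay farther below the other 4 than Dixon's critical value of 0.71 allows in 6 of 44 values examined, where about 2.2 are flagged by chance and the sums contain the single genes. Atp5a1 was at 616 CPM there, with the other 4 Furin KO libraries at 712 to 745 CPM, and Atp5b at 685 CPM, with the others at 778 to 813 CPM. The summed CPM of complex I was 725 (others 797 to 827), that of complex IV 566 (others 692 to 727), that of complex V 1785 (others 2067 to 2150) and that of all 38 members 4087 (others 4683 to 4892). WT replicate 1, the other 7-week library, was also the lowest of its group for these 6 values. Groups of 3 are not examined by this rule.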

How the results depend on the processing

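For genotype, 0 members passed under any of the 19 alternatives. Genes past the threshold as higher and lower in Furin KO numbered 3 and 1; without a filter on low counts they were 25 and 13, with DESeq2 12 and 3, with library set as a factor 8 and 4, and with limma-voom 2 lower. Of 722 recomputed member fold changes, 89 in 27 members had the other sign, from -0.11 to 0.17, and none passed. The members' median lay between -0.06 (without WT replicate 1) and 0.07 (without WT replicate 3), and members above 0 numbered 11 without WT replicate 1 and 30 without Furin KO replicate 1 or WT replicate 3. Ratios of summed CPM moved by less than the spread between libraries.

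For age, members above 0 numbered 34 to 36 under every alternative. Members past the threshold as higher at 8 weeks were 0, and 3 without a filter, 6 with DESeq2, 2 with limma-voom, 1 with genotype left out, and 0 to 1 with a library left out. All genes past it as higher at 8 weeks were 10, and 105 without a filter, 170 with DESeq2, 37 with limma-voom, 21 with genotype left out, 0 with the length trend removed, and 0 to 18 with a library left out. Those lower at 8 weeks were 32, and 173 without a filter, 212 with DESeq2, 77 with limma-voom, 0 with the length trend removed, and 0 to 40 with a library left out. The members' median log2 difference was 0.18 with the length trend removed and 0.22 to 0.34 with a library left out. The cause was not tested. Pairing by replicate number was not possible because the labels give none; the fit with library set as a factor compares the genotypes within sets. The 11308220 to 21040431 counts per library limit Cycs most, and 3 WT and 2 libraries of 7 weeks limit every comparison.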
